A study of Mus musculus with 6 samples.

Results

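Trypsinogens are the inactive forms in which the pancreatic acinar cell makes and stores trypsin. Enteropeptidase removes a short activation peptide in the gut lumen, and the trypsin so formed activates the other digestive zymogens. Premature activation inside the acinar cell is held in check by Spink3, the mouse counterpart of human SPINK1, a small secretory trypsin inhibitor that travels in the same granules. The 8 genes described here, out of 10245 in the deposited table, were chosen by symbol. They are 6 trypsinogens (Prss1, Prss2, Prss3, Try4, Try5 and Try10) and 2 genes of the inhibitor side, Spink3 and Serpini2, a serpin made by acinar cells and also called pancpin.

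RNA was sequenced from the whole pancreas of 3 control mice of genotype Ptf1a CreER/+ and 3 Ptf1a cKO mice of genotype Ptf1a CreER/fl, with 1 library per mouse. Every mouse, controls included, carried the CreER allele, which places a tamoxifen-dependent Cre recombinase under the endogenous Ptf1a locus and makes no PTF1A protein, so the controls had 1 functional Ptf1a allele. All mice received tamoxifen by gavage at 0.25 mg per g on 3 days and were killed on day 14. Control mice were 4 months and Ptf1a cKO mice 5 months old, so age and genotype cannot be told apart, and each group held 1 male and 2 females. Values are normalized counts as scaled by the authors. The number of reads behind a value cannot be read from the table, and the spread between 3 mice is the measure of precision used here. Ptf1a itself, which encodes the DNA-binding subunit of the acinar factor PTF1, had a mean of 606 ± 42.9 normalized counts in controls and of 33.4 ± 32.1 in Ptf1a cKO (SD, n = 3). The 3 Ptf1a cKO libraries held 19.8, 70.1 and 10.2 of them (log2 fold change -4.41, adjusted p = 3.29e-04 from limma over all genes).

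The mouse trypsinogens lie close together on chromosome 6, between Try4, which starts at 41302269, and Prss2, which ends at 41525079 in GRCm38. The reads had been aligned to mm9, so these positions were looked up by symbol and are not those of the alignment. Each of the 6 genes has 5 exons. Their coding sequences share between 88.6% (Prss2 and Prss3) and 97.4% (Try4 and Try5) of aligned bases. Serpini2 lies on chromosome 3, from 75242370 to 75270078, and Spink3 is listed as Spink1 in the GRCm38 annotation.

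The likeness of the trypsinogens is shown at the site where they are activated. The 63 bases below, from GENCODE transcripts of GRCm38, surround the run of aspartate codons and the lysine codon after which enteropeptidase cuts. They are written 5′ to 3′ on the coding strand, with bases that differ from Prss2 in capitals. Each stretch joins 2 exons, so its genomic span holds an intron. The spans are chr6:41521834-41522869 for Prss2, chr6:41302315-41303336 for Try4, chr6:41458973-41461233 for Prss1 and chr6:41354222-41355504 for Try10, all on the plus strand. Try5 (chr6:41313456-41314665) and Prss3 (chr6:41376915-41377567) lie on the minus strand.
Prss2: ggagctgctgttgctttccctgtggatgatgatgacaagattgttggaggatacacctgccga
Try4: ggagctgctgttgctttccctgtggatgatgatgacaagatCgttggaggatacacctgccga
Try5: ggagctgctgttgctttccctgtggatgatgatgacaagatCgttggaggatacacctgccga
Prss1: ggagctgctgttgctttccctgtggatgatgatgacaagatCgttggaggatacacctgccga
Try10: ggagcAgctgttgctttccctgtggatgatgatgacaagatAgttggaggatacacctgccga
Prss3: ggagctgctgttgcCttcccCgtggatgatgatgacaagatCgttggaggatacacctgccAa
Try4, Try5 and Prss1 had the same letters throughout this stretch and differed from Prss2 at 1 base. Try10 differed at 2 bases and Prss3 at 4.

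Such identity bears on every value that follows, because the table's counts leave out alignments that were not unique. Each transcript was therefore cut into all of its windows of 50 bases, the length of the reads. Of the windows of Prss2, 7.83% occurred without mismatch in a transcript of another gene. This share was 40.8% for Try10, 53.9% for Try5, 54.9% for Prss1, 65.6% for Try4 and 66.1% for Prss3. With up to 2 mismatches allowed against the other trypsinogens, it was 34.1% for Prss2, 66.8% for Try10, 86.0% for Try5, 90.9% for Prss1, 95.2% for Try4 and 94.3% for Prss3. Spink3 and Serpini2 had no exact shared window among 680 and 1362. The inhibitors and, in large part, Prss2 could thus be counted over their whole length, while the other trypsinogens were counted on the stretches that tell them apart. The fall of a single paralog is uncertain to that extent. The alignments left out as not unique, over the whole genome, ranged from 54950413 to 70777864 normalized counts per control and from 21603182 to 33393848 per Ptf1a cKO library.

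**Figure D1:**
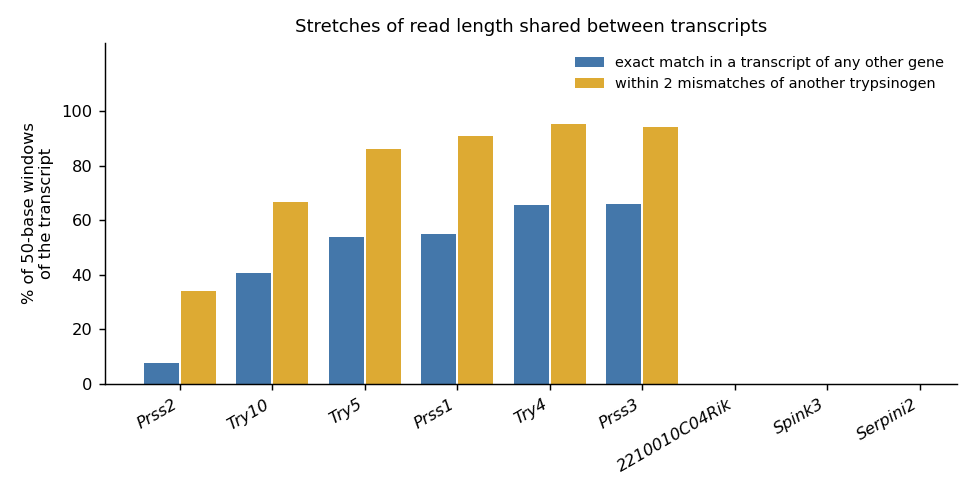
Share of the 50-base windows of each transcript (y axis, %) found without mismatch in a transcript of any other gene (blue) or within 2 mismatches of another trypsinogen (yellow, trypsinogens only). Prss2 shared 7.83% of its windows exactly and Prss3 66.1%, whereas 2210010C04Rik, Spink3 and Serpini2 shared none.

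To learn how the protease and inhibitor genes changed upon Ptf1a deletion, the groups were compared by limma on log2(value + pseudocount), with Benjamini-Hochberg adjustment over all 10245 genes. All 8 members passed the filter on low values. Of these, 6 were lower in Ptf1a cKO with an adjusted p-value under 0.05, namely Prss2, Try4, Try5, Try10, Spink3 and Serpini2, and none was higher, nor did any member have a positive fold change. Among all genes tested, 33.9% passed this threshold, 16.8% as lower and 17.1% as higher. In the same 6 genes every Ptf1a cKO value lay below every control value, whereas 50.8% of all genes had groups apart in either direction. The median log2 fold change was -1.92 over the 8 members and 0.036 over all genes. Prss1 and Prss3, the members with the lowest levels, did not pass. In whole pancreas, fewer acinar cells and less RNA per acinar cell cannot be told apart.

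Prss2, which encodes an anionic trypsinogen, was the most abundant member. Its control libraries held 897179, 888662 and 845743 normalized counts and its Ptf1a cKO libraries 164552, 260657 and 91693.6. The groups were far apart, and Ptf1a cKO replicate 2 retained the most. On the log2 scale Prss2 changed by -2.47 (standard error 0.55, adjusted p = 0.00889 from limma).

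Try4 was next in level. Controls had 224973, 246300 and 246972 normalized counts of Try4 and Ptf1a cKO pancreata 91603.7, 142008 and 54821.3. No Ptf1a cKO library reached the lowest control, and their order among themselves was that of Prss2. Try4 changed by -1.42 on the log2 scale (standard error 0.43, limma adjusted p = 0.0304). This call was lost in 4 of the 6 fits with a library left out, with adjusted p-values from 0.0868 (without Ptf1a cKO replicate 1) to 0.111 (without control replicate 2), also without control replicate 1 or 3, while the change itself stayed between -1.75 and -1.07.

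Try5, the closest paralog of Try4, had 88927.9, 97532.8 and 112957 normalized counts in controls and 30566.4, 27603.2 and 28045.1 in Ptf1a cKO. Its 3 Ptf1a cKO values were nearly equal, unlike those of Prss2 and Try4. Try5 changed by -1.79 (log2 scale, standard error 0.25, adjusted p = 9.45e-04 from limma).

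Try10 ran at much lower values, with 5185, 7588 and 5960 normalized counts in controls and 1695, 2081 and 933 in Ptf1a cKO. The groups did not overlap, and replicate 2 was again the highest of the Ptf1a cKO libraries. Try10 changed by -2.05 on the log2 scale (standard error 0.28, limma adjusted p = 8.32e-04).

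Prss3 and Prss1 behaved otherwise. The controls held 761, 742 and 1190 normalized counts of Prss3 and the Ptf1a cKO libraries 311, 339 and 980. Ptf1a cKO replicate 3 lay within the control range, so the groups overlapped. The log2 fold change of Prss3 was -0.89 (standard error 0.39, limma adjusted p = 0.107) and became -1.42 (adjusted p = 0.00194) without Ptf1a cKO replicate 3. For Prss1, whose human namesake encodes cationic trypsinogen, controls had 526, 751 and 281 normalized counts and Ptf1a cKO pancreata 252, 344 and 435. Control replicate 3 fell among the Ptf1a cKO values. Prss1 changed by -0.51 (standard error 0.33, adjusted p = 0.249 from limma, 95% interval from -1.25 to 0.22), and by -0.90 (adjusted p = 0.0324) without control replicate 3. Both genes were highest in Ptf1a cKO replicate 3 among the deleted pancreata, where Prss2, Try4 and Try10 were lowest.

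On the inhibitor side, Spink3 had 10984.7, 11819.6 and 9010 normalized counts in controls and 2286, 3804 and 1695 in Ptf1a cKO. The lowest control was above the highest Ptf1a cKO library. Spink3 changed by -2.10 on the log2 scale (standard error 0.27, limma adjusted p = 6.34e-04), and with single libraries left out it stayed between -2.42 and -1.84. Serpini2 had the largest change of the 8 genes. Controls held 13283, 13226 and 10508.7 normalized counts of it and Ptf1a cKO pancreata 1180, 2953 and 963. Each control was above every Ptf1a cKO library, with a difference of -3.03 on the log2 scale (standard error 0.36, adjusted p = 4.47e-04 from limma).

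Prss2, Try4, Try10, Spink3 and Serpini2 had the same order among the Ptf1a cKO libraries, with replicate 2 highest and replicate 3 lowest. This was also the order of the remaining Ptf1a transcripts, and with 3 libraries it was not tested. Replicate 2 was also the only male among the Ptf1a cKO mice. The directions of change of the members rest on the authors' scaling, which follows most genes and not the total. When the libraries were instead brought to equal totals, the median gene rose by 1.48 on the log2 scale. Under that scaling Prss2 (-0.98), Try10 (-0.55), Spink3 (-0.61) and Serpini2 (-1.54) were still lower past the threshold, Try5 was at -0.29 (adjusted p = 0.263, limma), and Try4 (0.077), Prss3 (0.60) and Prss1 (0.97) changed sign. Relative to the median gene of that scaling, the 8 changes lay between -3.02 and -0.51. Equal totals shift all genes nearly alike, so this subtraction gives back the first values by construction and is no separate support.

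**Figure D2:**
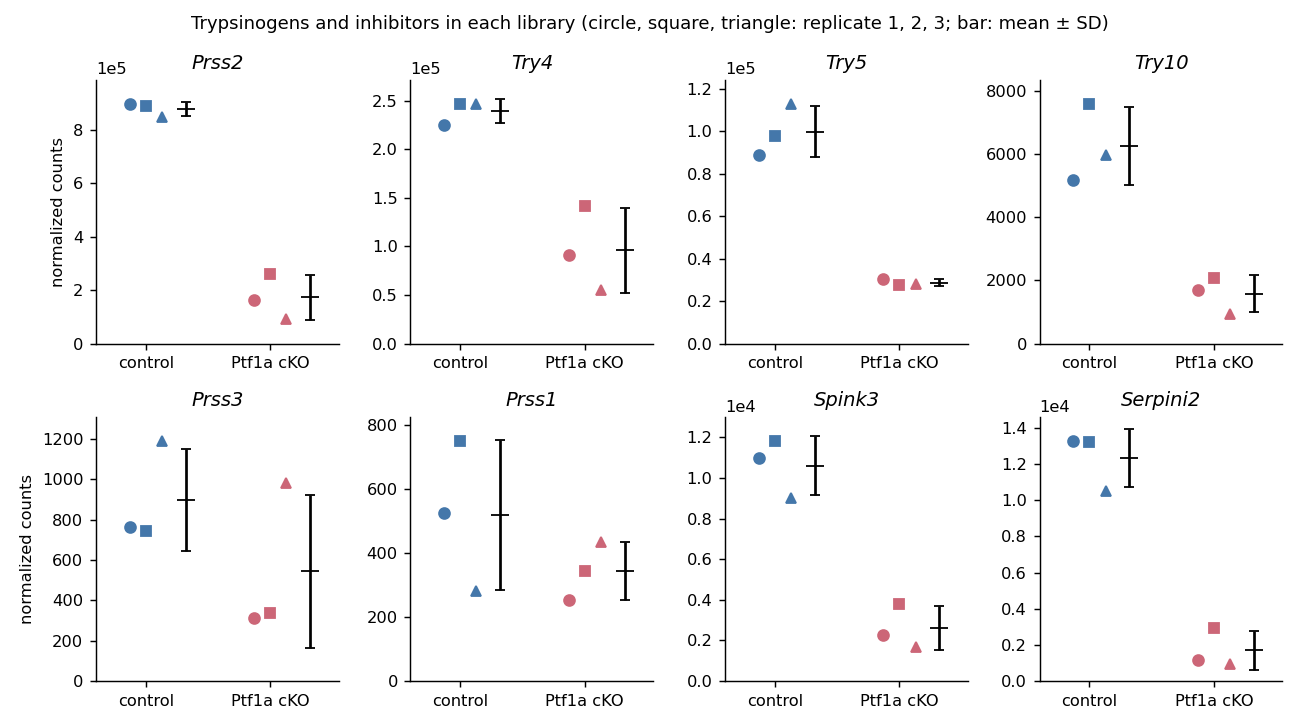
Normalized counts (y axes, linear from 0) of the 8 genes in 3 control (blue) and 3 Ptf1a cKO (red) libraries, with replicates 1, 2 and 3 as circle, square and triangle and a black bar for the mean ± SD. The groups are apart for all genes except Prss3, where Ptf1a cKO replicate 3 (980) lies among the controls, and Prss1, where control replicate 3 (281) lies among the Ptf1a cKO values.

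**Figure D3:**
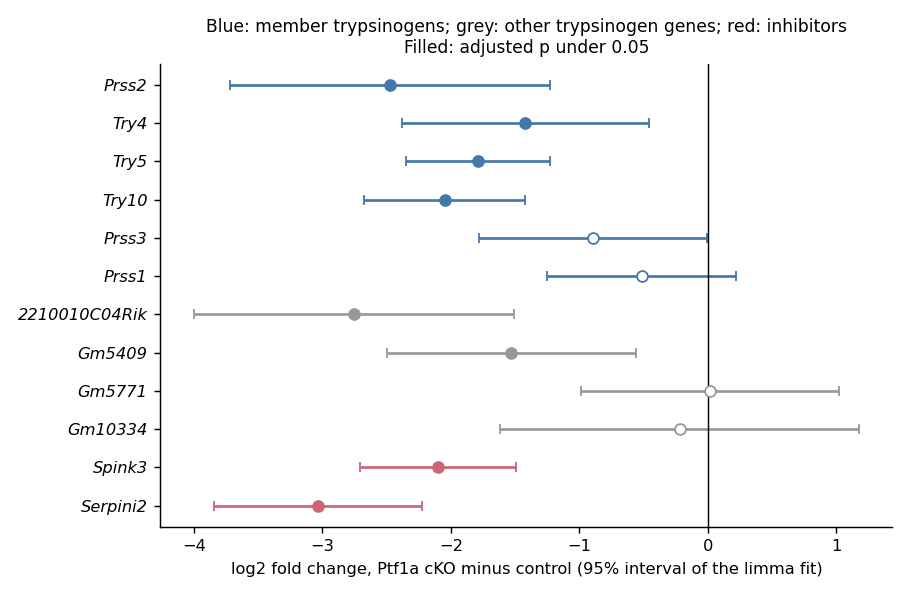
Log2 fold change of Ptf1a cKO against control (x axis) with its 95% interval from limma, for the 6 trypsinogens (blue), 4 further trypsinogen genes (grey) and the 2 inhibitors (red), filled where the adjusted p-value was under 0.05. Serpini2 (-3.03) lies farthest to the left, and the intervals of Prss1, Gm5771 and Gm10334 hold 0.

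To place the members beside each other, normalized counts were divided by transcript length in kilobases. In controls Prss2 was highest with 1076313 ± 33826.6 per kilobase (SD, n = 3), ahead of Try4 with 298895 ± 15619.9 and Try5 with 124602 ± 15199.4. Spink3 followed with 14547.2 ± 1979 per kilobase, then Serpini2 with 8745 ± 1124, Try10 with 7261 ± 1426, Prss3 with 1092 ± 308 and Prss1 with 645 ± 292. Neighbours in this order did not overlap between libraries, apart from Serpini2 with Try10 and Prss3 with Prss1. In Ptf1a cKO pancreata, Try10 (1825 ± 679 per kilobase) had a higher mean than Serpini2 (1204 ± 774), and the other genes kept their places by the mean. There, Prss2 (211412 ± 103985) overlapped with Try4 (120030 ± 54644.6), and from Spink3 (3560 ± 1492) downwards each gene overlapped with the next, through Try10, Serpini2 and Prss3 to Prss1. Try5 (35877.9 ± 1996) overlapped with neither neighbour. These overlaps are between mice. Within every Ptf1a cKO library Prss2 was above Try4, Spink3 above Try10 and Try10 above Serpini2. Within every control library Serpini2 was above Try10. Since shared stretches were not counted, the levels of Try4, Try5, Try10, Prss1 and Prss3 per kilobase of the whole transcript may be understated relative to those of Prss2.

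A ratio of 2 genes within a library does not change when the whole library is multiplied by a factor, and the balance of protease to inhibitor transcripts was therefore computed in each library. The 6 trypsinogens summed to 1217552, 1241575 and 1213103 normalized counts in controls and to 288981, 433033 and 176909 in Ptf1a cKO. For each normalized count of Spink3 there were 110.8, 105.0 and 134.6 of trypsinogen in controls and 126.4, 113.8 and 104.4 in Ptf1a cKO. The 2 sets of ratios overlapped in part, the highest being a control and the lowest a Ptf1a cKO library, with means of 116.8 ± 15.7 and 114.9 ± 11.1 (SD, n = 3 each), a difference smaller than the spread between mice. Per kilobase the means were 105.0 ± 14.1 and 103.5 ± 9.93. The sum leans on Prss2, which shared 7.83% of its windows exactly, against 65.6% for Try4 and 53.9% for Try5. Since shared stretches were not counted, Try4 and Try5 may be understated in it, and the overlap holds for the unique counts only. Without Prss2 in the sum, the log2 of the mean Ptf1a cKO ratio over the mean control ratio was 0.59. With all 6 genes it was -0.024.

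The components of that sum did not keep their proportions. Prss2 made up 73.7%, 71.6% and 69.7% of the summed trypsinogen counts in controls but 56.9%, 60.2% and 51.8% in Ptf1a cKO. Try4 went from 18.5%, 19.8% and 20.4% to 31.7%, 32.8% and 31.0%. Neither gene's shares overlapped between groups. Since shared stretches were not counted, these are shares of counts and may overstate Prss2 and understate Try4 as shares of transcripts. The ratio of Try4 to Prss2 varied little within a group, with 0.251, 0.277 and 0.292 in controls and 0.557, 0.545 and 0.598 in Ptf1a cKO, a 2.08-fold difference. It was chosen after its values were seen and was not tested. Try5 held between 7.30% and 9.31% of the sum in controls and between 6.37% and 15.9% in Ptf1a cKO, which overlap, and Try10, Prss3 and Prss1 each stayed under 1% in every library.

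**Figure D4:**
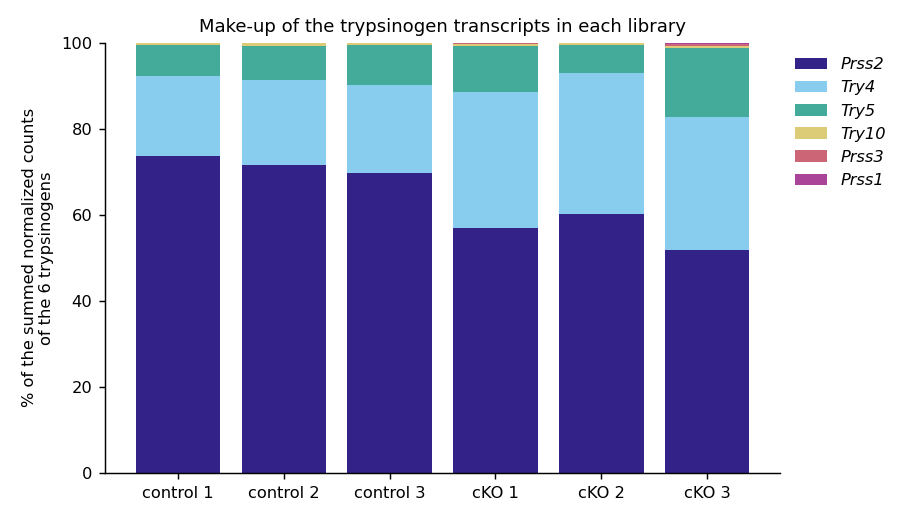
Share of each trypsinogen (y axis, % of the summed normalized counts of the 6 genes) in each of the 6 libraries (x axis). Prss2 shrinks from a mean of 71.7% in controls to 56.3% in Ptf1a cKO while Try4 grows from 19.6% to 31.8%. Stretches shared between genes were not counted, so the share of Prss2 among transcripts may be overstated.

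Each gene was then set against Spink3 alone, in 7 ratios tested by the exact two-sided permutation test over libraries, for which 3 against 3 cannot give a p under 0.10. Prss2 per Spink3 was 81.7, 75.2 and 93.9 in controls and 72.0, 68.5 and 54.1 in Ptf1a cKO, so Prss2 fell more than Spink3 by a factor of 0.774 without overlap (exact permutation p = 0.10, 0.175 after Benjamini-Hochberg adjustment). Try4 per Spink3 was 20.5, 20.8 and 27.4 in controls and 40.1, 37.3 and 32.3 in Ptf1a cKO, a 1.61-fold higher ratio with the groups apart and the same p-values. Prss1 per Spink3 was also higher without overlap, between 0.0311 and 0.0635 in controls and between 0.0904 and 0.257 in Ptf1a cKO (exact permutation p = 0.10, adjusted 0.175). The ratios of Prss3 (exact permutation p = 0.20), Try5 (p = 0.60) and Try10 (p = 1) to Spink3 overlapped between groups. None of the 7 passed 0.05, which this design does not allow.

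The inhibitors moved apart from each other. Serpini2 per Spink3 was 1.21, 1.12 and 1.17 in controls and 0.516, 0.776 and 0.568 in Ptf1a cKO (exact permutation p = 0.10, adjusted 0.175). The controls lay close together and all above the Ptf1a cKO libraries. Against Serpini2, the 6 trypsinogens rose from 91.7, 93.9 and 115.4 to 244.9, 146.7 and 183.7 per count. Whether the ratio appears shifted hence depends on which gene it is set against. With Spink3 and Serpini2 added together the ratio was 54.0 ± 7.09 in controls and 71.3 ± 10.5 in Ptf1a cKO (SD, n = 3 each), with the groups apart. That shift follows from the larger fall of Serpini2. Whether Serpini2 acts on trypsin was not measured here.

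**Figure D5:**
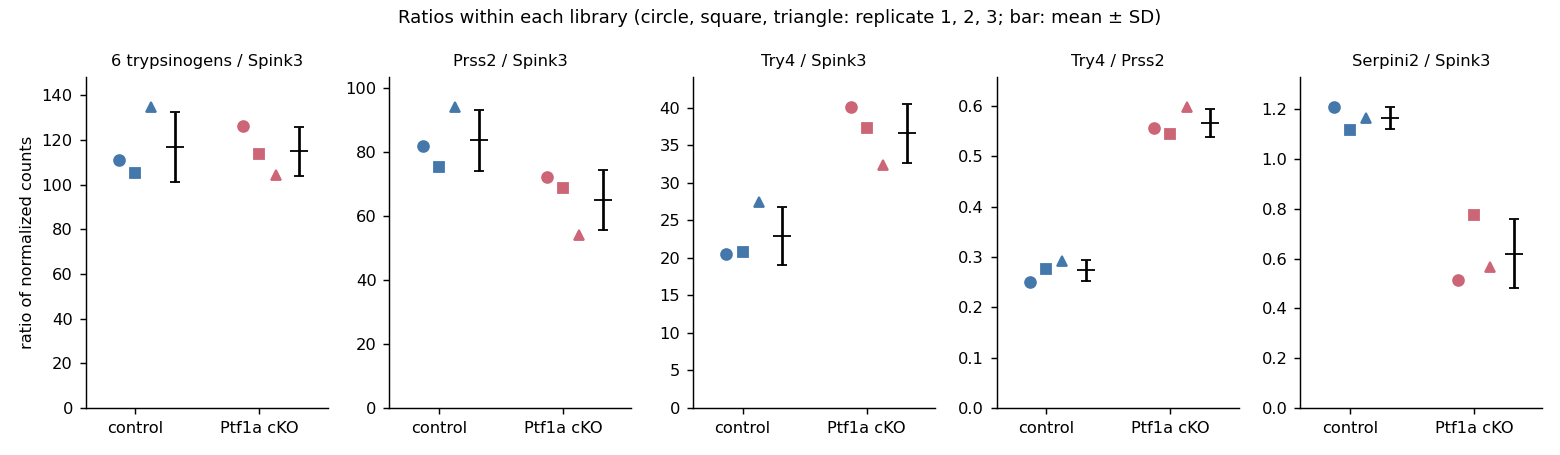
Ratios of normalized counts within each library (y axes, linear from 0) for control (blue) and Ptf1a cKO (red), replicates 1, 2 and 3 as circle, square and triangle, black bars for the mean ± SD. The summed trypsinogens per Spink3 overlap (116.8 and 114.9 on average), while Try4 per Prss2 is 2.08-fold higher in Ptf1a cKO and Serpini2 per Spink3 is lower in every Ptf1a cKO library.

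The trypsinogen cluster holds further genes that the table lists. Out of 10 symbols, 4 are in the table, of which 2 were lower past the threshold. 2210010C04Rik, a trypsinogen gene on chromosome 6 from 41030268 to 41035509, had 917924, 968819 and 886092 normalized counts in controls and 130376, 242013 and 81331.9 in Ptf1a cKO (log2 fold change -2.75, adjusted p = 0.00546 from limma). Its coding sequence shared between 75.3% and 76.2% of aligned bases with the 6 members, and none of its windows of 50 bases was within 2 mismatches of another trypsinogen. With it added to the sum, trypsinogen per Spink3 was 194.4, 187.0 and 233.0 in controls and 183.5, 177.5 and 152.4 in Ptf1a cKO, which do not overlap. The overlap of the protease to inhibitor ratio thus held for the 6 named trypsinogens and not with this gene included.

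Gm5409, annotated as an unprocessed pseudogene, was lower (log2 fold change -1.53, adjusted p = 0.0233 from limma), with 851, 941 and 329 normalized counts in controls and 218, 362 and 134 in Ptf1a cKO, although control replicate 3 fell below Ptf1a cKO replicate 2. Gm5771 (0.016, adjusted p = 0.980) and Gm10334 (-0.22, adjusted p = 0.807) did not pass. Gm5771 had 415, 376 and 538 normalized counts in controls and 271, 298 and 1072 in Ptf1a cKO, and Gm10334 had 48.7, 58.0 and 41.7 and then 19.0, 22.9 and 151.6. Ptf1a cKO replicate 3 was the highest of the 6 libraries for both. Gm10334 shares 503 of its 827 windows with Prss3, and Gm5771 shares 294 of its 749 with Prss1, the 2 members that were also highest in that library among the deleted pancreata. What sets this library apart in these genes was not tested.

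The promoters of the trypsinogens bear on the comparison because PTF1 acts at acinar promoters. It binds a bipartite site made of an E-box (CANNTG) and a TC-box (here TTTCCCA). RefSeq promoters of GRCm38.p6, from 250 bases before to 50 bases after the start of transcription, were matched for 5 of the 8 members. Of these, 4 are shown. First come those of the most abundant member and of the trypsinogen member with the smallest change past the threshold. Then follow those of a trypsinogen member that did not pass and of the inhibitor with the largest change. They read 5′ to 3′ on the gene's strand, with both motifs, searched on either strand, in capitals. Their positions are chr6:41521526-41521825 (plus) for Prss2, chr6:41302022-41302321 (plus) for Try4, chr6:41458680-41458979 (plus) for Prss1 and chr3:75270029-75270328 (minus) for Serpini2.
Prss2: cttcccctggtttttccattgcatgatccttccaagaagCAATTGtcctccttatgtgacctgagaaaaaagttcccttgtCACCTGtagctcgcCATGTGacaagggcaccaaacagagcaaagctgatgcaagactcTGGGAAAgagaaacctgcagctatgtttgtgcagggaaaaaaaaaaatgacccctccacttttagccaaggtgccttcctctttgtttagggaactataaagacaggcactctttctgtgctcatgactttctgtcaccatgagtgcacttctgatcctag
Try4: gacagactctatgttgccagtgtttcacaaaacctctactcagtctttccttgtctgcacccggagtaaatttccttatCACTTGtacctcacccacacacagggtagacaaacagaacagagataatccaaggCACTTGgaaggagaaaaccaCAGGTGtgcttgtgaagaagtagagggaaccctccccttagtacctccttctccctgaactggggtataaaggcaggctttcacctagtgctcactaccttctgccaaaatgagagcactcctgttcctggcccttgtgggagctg
Prss1: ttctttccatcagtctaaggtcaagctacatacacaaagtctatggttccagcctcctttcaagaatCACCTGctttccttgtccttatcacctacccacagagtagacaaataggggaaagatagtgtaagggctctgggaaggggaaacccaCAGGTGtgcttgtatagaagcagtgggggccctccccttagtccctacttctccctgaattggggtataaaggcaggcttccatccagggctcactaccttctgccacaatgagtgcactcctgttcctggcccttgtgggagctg
Serpini2: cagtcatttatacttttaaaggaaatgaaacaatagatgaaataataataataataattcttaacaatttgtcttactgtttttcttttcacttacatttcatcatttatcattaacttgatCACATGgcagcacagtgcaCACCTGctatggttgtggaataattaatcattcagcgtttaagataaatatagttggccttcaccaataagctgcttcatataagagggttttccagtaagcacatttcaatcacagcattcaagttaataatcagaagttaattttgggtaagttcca
The TC-box letters occurred in 1 of the 5 promoters, that of Prss2, starting 111 bases before the start site, and in 8.06% of all 32851 promoters. They overlapped no E-box there, and the nearest E-box started 155 bases before the start site. The shorter letters TTCCCA occurred in the promoters of Prss2 and Prss1 among the 5, and in 25.6% of all promoters. An E-box was found in all 5, as in 72.3% of all promoters. The TATA-box letters TATAAA, searched on both strands, occurred in all 5 and in 13.6% of all promoters. In the trypsinogens they lay on the gene's strand shortly before the start site. In Serpini2 the only match was on the opposite strand, at the upstream end of the stretch, which is not the place of a TATA box. These are matches of letters and not measured binding.

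Further genes of the trypsin pathway were taken from lists. Zymogens that trypsin activates, such as the chymotrypsinogens, proelastases and procarboxypeptidases, mostly fell. Out of 11 measured, 8 were lower and 1 higher past the threshold, with a median log2 fold change of -2.46. The largest falls were those of Cela2a (-3.11), an elastase, Ctrl (-2.81), a chymotrypsin-like protease, and Cpb1 (-2.66), carboxypeptidase B1. Pla2g1b, the secreted phospholipase A2 that trypsin activates, was the gene that rose (1.22, adjusted p = 0.0156 from limma; named after its value was seen).

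Of the enzymes that act on trypsinogen itself, 4 are in the table and all 4 passed. Ctsb encodes cathepsin B, the lysosomal protease that can activate trypsinogen within acinar cells. It rose from 1751, 1704 and 1867 to 3452, 3115 and 3399 normalized counts (log2 fold change 0.90, standard error 0.12, adjusted p = 7.10e-04 from limma). Ctsl, whose product cathepsin L inactivates trypsinogen, fell from 2221, 2134 and 1963 to 1109, 1060 and 890 normalized counts (-1.05, standard error 0.13, adjusted p = 4.94e-04 from limma). Both differences were large beside the spread between mice. Ctrc, chymotrypsin C, which degrades trypsin and trypsinogen, fell by 2.57 on the log2 scale (adjusted p = 5.49e-04, limma), and Ctsd, cathepsin D, by 0.37 (adjusted p = 0.0347, limma). Ctsb is also a gene of macrophages, and the leukocyte markers below were mostly higher too, whereas the cathepsin genes Ctsl and Ctsd fell. The part of leukocytes in the change of Ctsb was not tested.

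Among 39 symbols of other protease inhibitors, 16 are in the table, of which 6 were higher and 3 lower past the threshold (median 0.29). The largest changes were those of Serpinb1a (-2.99), an intracellular inhibitor of neutrophil-type proteases, Serpina3n (2.11), an acute-phase serpin, and Itih2 (1.61), a heavy chain of the inter-alpha-trypsin inhibitor. Other trypsin-like serine proteases gave 4 higher and 2 lower of 11 measured, led by Tmprss2 (2.70), Klk1 (-2.09) and Tmprss4 (1.28). Of the protease-activated receptors, F2r was measured, at 0.27 (adjusted p = 0.557, limma).

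By the likeness of their log2 values over the 6 libraries (root mean square difference after centring), the genes outside the 8 that came closest to Spink3 were Adm2 (0.0566), Psmb10 (0.0920), Sel1l (0.0952), Aldh1l2 (0.102) and Slc1a4 (0.113). Those closest to Prss2 were Cpa1 (0.0966), Gamt (0.143), Cpb1 (0.149), Extl1 (0.157) and 2210010C04Rik (0.158). The measure favours genes with a like fold change, and Spink3 and Prss2 differ in theirs.

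Markers of cell types changed as well. The acinar markers fell like the members, whereas the markers of other cell types that passed the threshold were all higher. The 8 acinar markers, all detected, summed to between 20.5% and 22.1% of normalized counts in controls and between 8.32% and 18.2% in Ptf1a cKO, and 6 were lower past the threshold. Of 7 duct markers measured, 4 were higher, and their sum rose from between 3780 and 4663 to between 25292 and 109770 normalized counts, for the most part through Spp1 (log2 fold change 5.14). Of 7 leukocyte markers 5 were higher (sums of 423 to 715 and of 1117 to 2385), and of 7 fibroblast and stellate markers 6 were (1628 to 1902 and 3283 to 7424). Of the mast cell and neutrophil markers, which include other trypsin-like proteases, Kit was measured and was higher (log2 fold change 1.04, adjusted p = 7.92e-04, limma). The endocrine markers had 0 of 7 past the threshold in limma, also 0 at an unadjusted p under 0.05, and the endothelial markers 1 of 5. The part of these shifts in the fall of the trypsinogens and inhibitors was not tested.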

How the data were processed

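RNA-seq libraries of 6 mouse pancreata were analysed. Per the labels, reads were aligned to mm9 and the processing notes name TopHat2 2.0.4, Bowtie 0.12.7.0, SAMtools 0.1.18.0 and HTSeq 0.6.0; the study's methods name TMM normalization. Gene values were deposited as normalized read counts (a signal) after scaling by the authors. They carry decimals without a common step, so whole reads could not be recovered and no count model was run. The study's methods state the uniquely aligned reads per library, but the values cannot be turned back into reads, and no counting interval is given. The 3 entries without a gene (75.7% to 82.6% of a library) were left out.

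After division by 13.6, the same for all libraries, the tests used log2(value + 0.25), a pseudocount of 3.41 in normalized counts, and fold changes on this scale understate those of low genes. Genes with a mean under 0.25 on this scale would have been removed, and none was. Groups were compared by limma 3.58.1 (R 4.3.3; lmFit, eBayes with trend, two-sided, no covariate), with an adjusted p-value under 0.05 over 10245 genes as the threshold. The fit was tested on simulated data. Ratios and permutation tests used Python 3.11.15 with SciPy 1.17.1, and identity of coding sequences Biopython 1.88. Sequences came from GENCODE transcripts and RefSeq promoters of GRCm38, not the build of the alignment.

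The members and lists were chosen with earlier results of these data known. The rule for names took all 8 members, up to 3 genes past the threshold with the largest changes per list, lists of 4 or fewer measured genes whole, and the 5 genes most like Spink3 and most like the highest trypsinogen per kilobase. The replicate numbers of the labels were checked as pairs, and alternatives of pseudocount, filter, scaling, limma settings, sex, replicate block and left-out libraries were run.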

Additional observations from a re-analysis of the deposited data

How the results depend on the processing

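The number of members lower past the threshold was 6 and stayed between 5 and 7 with single libraries left out. When all libraries were brought to equal totals, 4 were lower and 1 (Prss1) was higher, Prss1, Prss3 and Try4 changed sign (0.97, 0.60 and 0.077), and 129 genes of the whole table were lower and 9587 higher in place of 1724 and 1751. With equal totals after leaving out acinar secretory products, 1161 genes were higher, and the share of higher among all calls was 35.0% in place of 50.4% (98.7% with equal totals of all genes). Spink3 and Ptf1a kept direction and call under every alternative run, with ranges over left-out libraries of -2.42 to -1.84 and -5.10 to -3.88. The whole table gave 1182 to 1747 lower and 1174 to 1854 higher genes with single libraries left out. As the log2 of the mean Ptf1a cKO ratio over the mean control ratio, the ratio of summed trypsinogens to Spink3 was -0.024, and -0.099 to 0.090 with single libraries left out. It was 0.59 without Prss2 and -0.26 without Try4 in the sum. In 2 alternatives chosen after seeing the data it was -0.26 with 2210010C04Rik added and 0.40 with Serpini2 added to Spink3.

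The same-numbered libraries of the 2 groups had correlations of 0.039, 0.134 and 0.144 between their deviations from the group means. For libraries of unlike number the correlations ranged from -0.202 to 0.083. The main fit did not take the numbers as pairs, and these values do not settle whether they are. With the replicate block Prss3 passed the threshold (adjusted p = 0.00973, limma) and 7 members were lower; no other member gained or lost its call. Ptf1a cKO replicate 1 correlated best with control replicate 2, and every other library correlated best with its own number. A count model was not run, since whole reads could not be recovered, and for the same reason no counting error was computed for the low members, Prss1 and Prss3.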

Other observations

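Beyond proteases and their inhibitors, a list of 43 acinar secretory products, which holds the 8 members, had 40 genes in the table. Of these, 25 were lower and 4 higher in Ptf1a cKO past the threshold (limma, Benjamini-Hochberg), with a median log2 fold change of -2.05. The 4 higher genes were Reg3g (3.41), Reg3b (2.87) and Reg3a (1.72), lectins known to rise in pancreatic injury, and Pla2g1b (1.22). The Reg genes did not move as one. Reg3d was lower (-1.14, adjusted p = 0.0317, limma), while Reg1 (-1.08, adjusted p = 0.0946) and Reg2 (0.10, adjusted p = 0.948) did not pass. All of these genes were named after their values were seen.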
